A study of Mus musculus with 4 samples.

Results

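The bulge transcription factors are 8 genes whose proteins set or hold the identity of hair follicle stem cells: Sox9, Lhx2, Nfatc1, Tcf7l1, Tcf7l2, Tbx1, Foxc1 and Runx1. They were chosen by name, as the probes other than control spots that carry one of these symbols, and make up 8 of the 31896 gene names and 12 of the 39429 probes on the array. The study set mouse skin epithelial stem cells after long culture (15p) against the same kind of cells before it (0p). Both are primary skin epithelial cells of adult C3H/HeN mice, sorted for CD49f (the alpha 6 integrin) and CD34 at the cell surface. The 15p cells had gone through 15 serial cultures of 10 days with Wnt-3a, a ligand of the canonical Wnt pathway, on collagen type I in serum-free medium, and were sorted again after each. The 0p cells are described as sorted by flow cytometry, although Wnt-3a stands as treatment in the labels of both RNAs. RNA of 15p and of 0p cells was hybridised together on 4 Agilent 2-colour arrays: 2 biological replicates, each hybridised in both dye orientations. An array is named here by the dye of its 15p RNA (15p-Cy5 or 15p-Cy3). Whether the replicates are separate animals is not stated in the labels, so p-values speak only for these samples. They rest mostly on the variance of all tested genes (prior degrees of freedom 8.89, residual 1), and little on the spread of a gene between its replicates.

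The bulge is the part of the outer root sheath where quiescent hair follicle stem cells sit between hair cycles. Sox9 and Lhx2 are needed to keep this compartment, Nfatc1, Foxc1 and Tbx1 restrain its cells from dividing or preserve them over repeated cycles, and Runx1 promotes their activation. Tcf7l1 and Tcf7l2 are DNA-binding partners of beta-catenin in these cells, and without Wnt signal they repress their targets.

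Of the 8 genes, 5 were bright enough to test: Sox9, Nfatc1, Tcf7l2, Foxc1 and Runx1. A probe was tested if it stood well above background on all 4 arrays in 15p RNA or on all 4 in 0p RNA, a criterion that 17374 genes met. None of the 5 passed the threshold of adjusted p below 0.05 (limma, Benjamini-Hochberg over all tested genes), where 0 of 17374 genes were called higher in 15p (background 0 percent) and 0 lower (0 percent). At an unadjusted p below 0.05, 1 of the 5, Sox9, was counted, against 1095 of 17374 genes, or 6.30 percent. Across the 5, mean log2 ratios of 15p over 0p ran from -0.38 to 0.024, with a median of -0.027 against 0.0025 over all tested genes, and 1 was positive and 4 were negative. Over all tested genes 8928 were positive and 8446 negative, the background for the sign counts of the lists below. No member had the same sign on all 4 arrays, against 6.78 percent of all tested genes.

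**Figure D1:**
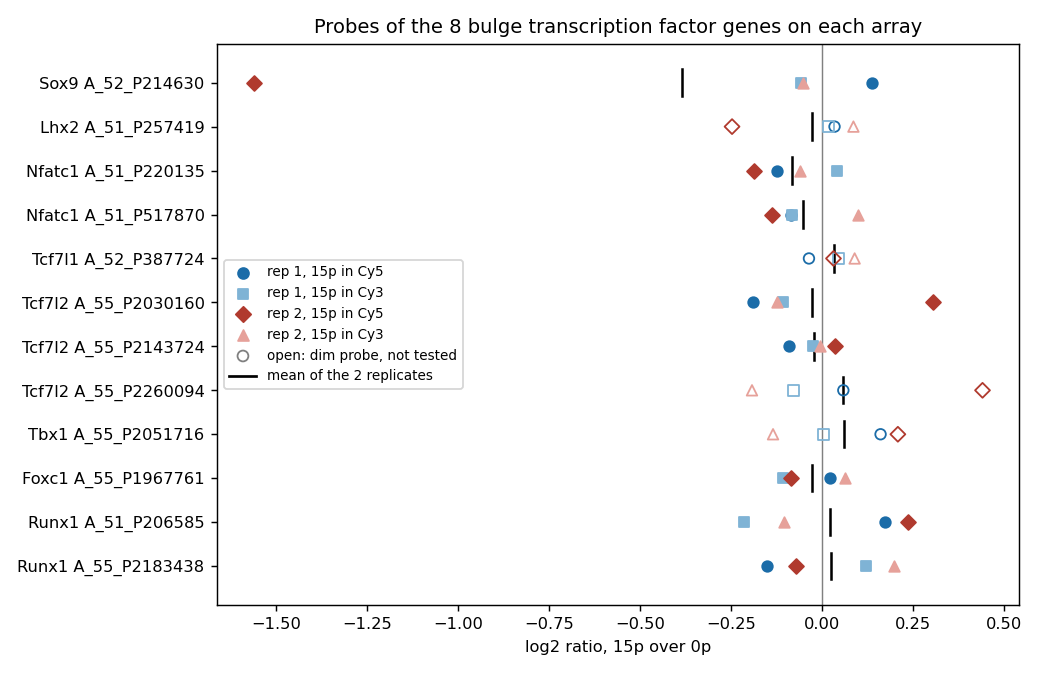
Log2 ratio of 15p over 0p for the 12 probes of the 8 genes (rows) on each of the 4 arrays (points), with the mean of the 2 replicates as a black bar; filled points are tested or testable probes and open points dim ones. Sox9 on the 15p-Cy5 array of replicate 2, at -1.56, is the only point beyond a 2-fold difference.

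The sort markers were read beside these values. All 7 listed basal keratinocyte genes, among them Krt5, Krt14 and Itga6 (which encodes CD49f), were well above background on all arrays in both RNAs, with a median log2 ratio of 0.00042. Among them Krt14 had the largest mean log2 ratio, 0.19, and the others lay between -0.026 and 0.083. On the 15p-Cy5 array of replicate 2 Krt14 was at 113564 in 15p and 68391 in 0p. Krt15, a keratin of the bulge, was well above background on 4 of 4 arrays in both RNAs, with a log2 ratio of 0.17 ± 0.033 (SD, n = 2 replicates; limma adjusted p = 0.749). Its sign split by dye, at 0.31 and -0.012 on the 15p-Cy5 and 15p-Cy3 arrays of replicate 1 and 0.48 and -0.093 on those of replicate 2, a spread that the SD over replicates leaves out. Cd34 itself was well above background on 0 of 4 arrays in 15p RNA and on 1 of 4 in 0p RNA, and the bulge receptor gene Lgr5 on 0 in either, so the transcript of one of the sort's own markers was hardly measured here. Of the markers of other skin cells, 4 of 7 immune, 3 of 7 endothelial, 0 of 3 lymphatic endothelial and 2 of 7 dermal fibroblast genes were above background on all arrays in each RNA. Of the melanocyte, skeletal muscle, dermal papilla and sebocyte genes, 3 of 5, 2 of 4, 3 of 4 and 3 of 4 were. The median log2 ratios of these 8 lists lay between -0.039 and 0.030. Their summed levels overlapped: 6048 to 6305 in 15p and 5423 to 6910 in 0p for the immune genes, 3689 to 5142 in 15p and 4320 to 4779 in 0p for the endothelial, 197 to 222 in 15p and 200 to 221 in 0p for the lymphatic, and 1581 to 2158 in 15p and 1551 to 2125 in 0p for the fibroblast genes. Each of the first, second and last of these sums came mostly from 1 gene. Itgam was at 5130.3 to 5377 in 15p and 4512 to 5940 in 0p, Kdr at 2235 to 2873 in 15p and 2229 to 3038 in 0p, and Twist2 at 1084 to 1601 in 15p and 1054 to 1596 in 0p. The fibroblast genes Dcn, Lum and Pdgfra and the endothelial genes Cdh5, Tek and Emcn were well above background on 0 arrays. The fibroblast gene Col3a1 and the endothelial genes Pecam1 and Flt1 were so on 4 of 4 arrays in both RNAs. Flt1 was at 975.6 to 1834.5 in 15p and 993.6 to 1640 in 0p. Col1a1 was above background on 3 of 4 arrays in each RNA, Col1a2 on 3 in 15p and 1 in 0p, and Vwf on 1 in 15p and 3 in 0p. The part of such cells in the results was not tested, and in bulk RNA fewer cells of a type and less RNA per cell cannot be told apart.

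Sox9 encodes an HMG-box factor that is needed to form and maintain the hair follicle stem cells. It was read by a single 60-base probe for transcript NM_011448, at chr11:112648809-112648868 in mouse build mm9, printed in 10 spots on every array. The files annotate no exon or untranslated region for any probe. The first 30 bases of that probe are shown because 1 measurement with it sets the mean of the list's most negative gene, and they are low in G and C, as is the whole probe (30 percent).
Sox9 A_52_P214630: ataaaaccttaaagcgttcttataatatgg

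In 15p RNA the normalised intensity of Sox9 was 1348 and 1351 on the replicate 1 arrays with 15p in Cy5 and in Cy3, and 550.2 and 1671 on those of replicate 2. In 0p RNA it was 1227 and 1406 on the same arrays of replicate 1, and 1624 and 1731 on those of replicate 2. A single channel, 15p in Cy5 of replicate 2, lay below all the other 7, and the same RNA labelled with Cy3 gave 1671 on the dye-swapped array. The log2 ratios were 0.14 and -0.059 in replicate 1, and -1.56 and -0.053 in replicate 2, again with 15p in Cy5 first. The replicate means, 0.038 and -0.81, differed in sign, and the overall mean was -0.38 ± 0.60 (SD, n = 2). Its 95% interval was -0.71 to -0.061 and its adjusted p 0.749 (limma). That interval rests mostly on the variance of all tested genes (prior degrees of freedom 8.89, residual 1), and neither replicate mean lies within it. It does not measure the spread between the Sox9 replicates. Without the 15p-Cy5 array of replicate 2 the mean was -0.0073 (limma adjusted p = 0.9996). With the arrays paired across the replicates, an alternative chosen after seeing the data, the same mean had a limma adjusted p of 0.00586. Sox9 was 1 of 60 genes called in that fit (7 higher, 53 lower). The residual of that fit holds only the difference between the 2 crossed pairs, not that between the replicates. Its prior degrees of freedom were infinite, against 8.89 in the main test. Every gene thus had the same variance, and the spread of Sox9 itself did not enter this p-value.

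The 10 spots of the Sox9 probe gave that low ratio alike. On the 15p-Cy5 array of replicate 2 they ranged from -1.60 to -1.51, with an SD of 0.032, and on the other 3 arrays their SD was 0.023 to 0.034. All 10 spots were low there, and the spread between spots was far below the gap between arrays. Of the 243 kept probes printed 10 times, 1, that of Sox9, was at least 2-fold lower in 15p on that array. Over all tested genes the share was 0.472 percent (82 of 17374).

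**Figure D2:**
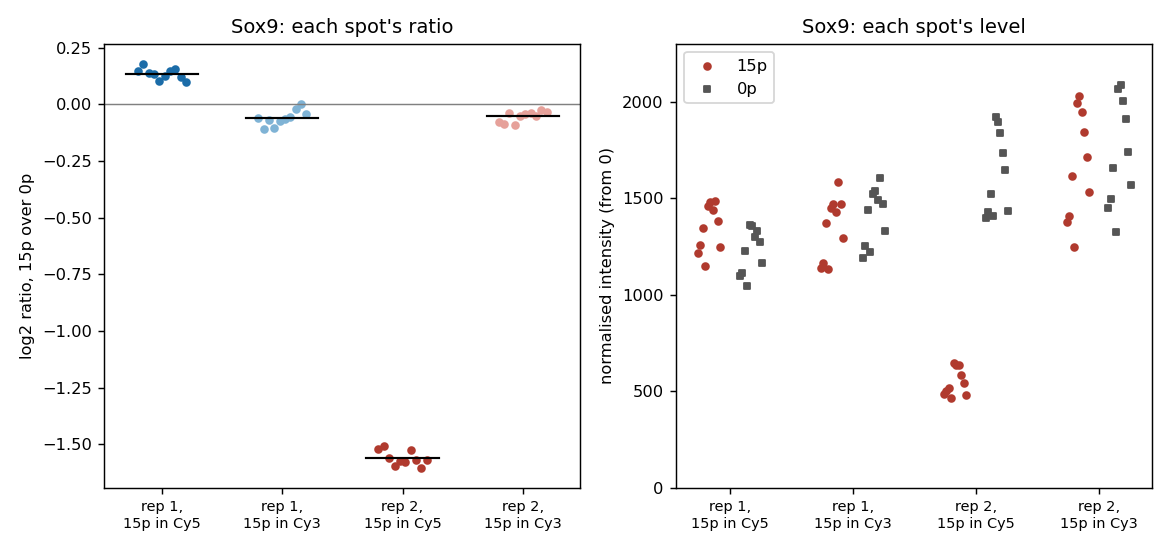
The 10 spots of the Sox9 probe on each array, as log2 ratio of 15p over 0p (left, mean as a black bar) and as normalised intensity on a linear axis from 0, 15p in red circles and 0p in grey squares (right). On the 15p-Cy5 array of replicate 2 all 10 ratios lie between -1.60 and -1.51 and the 15p spots are the low ones, while 0p there is near its level on the dye swap.

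That array stood apart over the whole genome. The SD of the log2 ratio over all tested genes was 0.29 on it and 0.13 to 0.14 on the others, and 108 genes were past a 2-fold difference, against 4, 0 and 3. On it 82 genes (0.472 percent) were at least 2-fold lower in 15p, Sox9 among them, and 38 genes were at or below the Sox9 ratio. Of those 82 genes, 0 were at least 2-fold lower on any other array, and their median log2 ratio was 0.034 on the dye-swapped array, -0.18 on the 15p-Cy5 array of replicate 1 and 0.24 on its dye swap. The Sox9 value is therefore given with and without that array. Each replicate was on its own slide and scan, so for a difference between the replicates, slide, scan and replicate cannot be told apart. The dye-swapped array of replicate 2 had an SD of 0.14 and 3 genes past a 2-fold difference. What set the 15p-Cy5 array of replicate 2 apart was not tested.

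**Figure D3:**
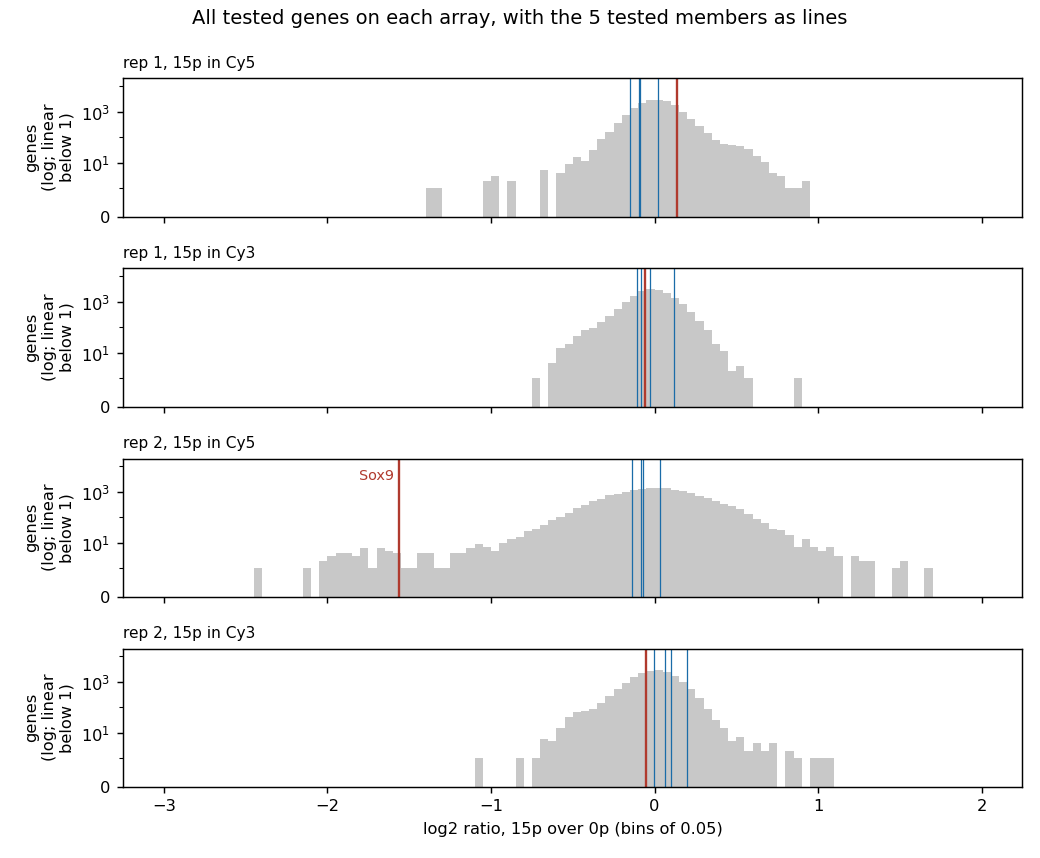
Number of genes by log2 ratio of 15p over 0p in bins of 0.05 on each array (17374 tested genes; logarithmic count axis, linear below 1), with Sox9 as a red line and Nfatc1, Tcf7l2, Foxc1 and Runx1 as blue lines. The 15p-Cy5 array of replicate 2 is the widest, with an SD of 0.29, and Sox9 lies in its lower tail, while on the other 3 arrays all 5 genes lie within the bulk.

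By Euclidean distance over the 4 arrays, the tested genes nearest to Sox9 were Cttnbp2nl (0.252), which encodes a cortactin-binding protein, and 2 features that the array names only NAP026743-1 (0.266) and NAP000020-007 (0.313). Their ratios on the 15p-Cy5 array of replicate 2 were -1.57, -1.40 and -1.52, and on the other arrays they lay between -0.12 and 0.095. Sox9 was the only one of the 5 members with a 2-fold difference on any array, so no neighbours were sought for the others. Of its 18 SOX paralogs on the array 9 were tested, with 5 positive and 4 negative ratios and a median of 0.0031. None was called, and the largest was Sox15, a SOX factor of keratinocytes, at 0.083 ± 0.13 (SD, n = 2; limma adjusted p = 0.806).

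Foxc1 encodes a forkhead factor that keeps activated bulge stem cells from over-dividing and holds them in the niche. Its probe, for NM_008592 at chr13:31902423-31902482 (mm9), was at 2400.0, 2346, 3142 and 3423 in 15p RNA, in the order replicate 1 with 15p in Cy5 and in Cy3, then replicate 2 likewise. On the same arrays it was at 2363, 2525, 3333 and 3281 in 0p RNA. Levels on the replicate 2 arrays were above those on the replicate 1 arrays in both RNAs, and the 15p and 0p ranges overlapped. The arrays were not scaled to each other, so the brighter replicate 2 is not read as a trait of Foxc1. The log2 ratios were 0.022, -0.11, -0.085 and 0.062. Their mean was -0.027 ± 0.021 (SD, n = 2), with a 95% interval of -0.15 to 0.094 and an adjusted p of 0.926 (limma).

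Of 30 forkhead paralogs on the array 19 were tested, 9 with positive and 10 with negative ratios (median -0.0029), with 0 called and 1, Foxj1, at an unadjusted p below 0.05 (6.30 percent of all tested genes). The largest were Foxj1, a factor of ciliated cells, at 0.16 ± 0.15, Foxj3 at -0.15 ± 0.22, and Foxo3, a factor of quiescence and stress, at 0.15 ± 0.22 (SD, n = 2; limma adjusted p = 0.749 for each). On the 15p-Cy5 array of replicate 2 these 3 had ratios of 0.49, -0.67 and 0.66, while their other ratios lay between -0.067 and 0.070. Foxc2, the closest paralog of Foxc1, was too dim to test.

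Runx1 encodes a DNA-binding partner of core binding factor beta that promotes the exit of bulge cells from rest. It was read by 2 kept probes, for NM_001111022 at chr16:92605785-92605844 and NM_009821 at chr16:92604413-92604472 (mm9), and the brighter, A_55_P2183438, entered the test. The first 30 bases of both are shown because the probes disagreed in sign on every array.
Runx1 A_55_P2183438: caggagggcccttggaggccaccaggaaga
Runx1 A_51_P206585: tgtgcatcgtgtcactgtaaatgtaatggt

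The tested probe was at 2939, 3255, 3477 and 3792 in 15p RNA and at 3266, 2996, 3653 and 3305 in 0p RNA, in the array order used for Foxc1. Its log2 ratios were -0.15, 0.12, -0.071 and 0.20. The second probe was at 874, 794, 1296 and 1180.3 in 15p RNA and at 776, 922, 1100.1 and 1269.7 in 0p RNA, with log2 ratios of 0.17, -0.22, 0.24 and -0.11. On each probe the 15p and 0p ranges overlapped, and the sign of the ratio followed the dye: the tested probe was lower in whichever RNA carried Cy5, the second probe higher. Such a split by dye was seen for 32.3 percent of tested genes. In 66.4 percent of them the mean Cy5 over Cy3 ratio was larger in size than the mean 15p over 0p ratio, as in 2 of the 5 members. The 15p over 0p ratios of the 2 arrays of a pair correlated at -0.55 in replicate 1 and -0.40 in replicate 2. Between the replicate means the correlation was 0.089. The mean log2 ratio of Cy5 over Cy3 was -0.14 for the tested probe and 0.18 for the second, whose G and C shares were 58.3 and 41.7 percent. Across 17374 genes the correlation of probe G and C share with the log2 ratio of Cy5 over Cy3 was -0.15 and -0.21 on the 15p-Cy5 and 15p-Cy3 arrays of replicate 1, and 0.18 and 0.085 on those of replicate 2. Over the mean of the arrays, where these opposite signs offset each other, it was 0.033, as a description over probes that share the same arrays. With the mean log2 ratio of 15p over 0p the probe G and C share correlated at 0.16, so averaging over the dyes did not remove it there. What lies behind this correlation was not tested.

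Once averaged over the dyes, both Runx1 probes gave nearly the same mean ratio, 0.024 and 0.022. For the tested probe this was 0.024 ± 0.056 (SD, n = 2), with a 95% interval of -0.10 to 0.15 and an adjusted p of 0.936 (limma). Of the 6 genes of the RUNX family and its partners on the array, 5 were tested and 5 had negative ratios, with a median of -0.034 and 0 called. Over all tested genes 8446 of 17374 were negative. Cbfb, the shared partner subunit of the RUNX factors, was at -0.093 ± 0.12, Runx2, the bone-forming paralog, at -0.064 ± 0.012, and the corepressor gene Cbfa2t3 at -0.034 ± 0.11 (SD, n = 2; limma adjusted p = 0.785, 0.831 and 0.910).

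**Figure D4:**
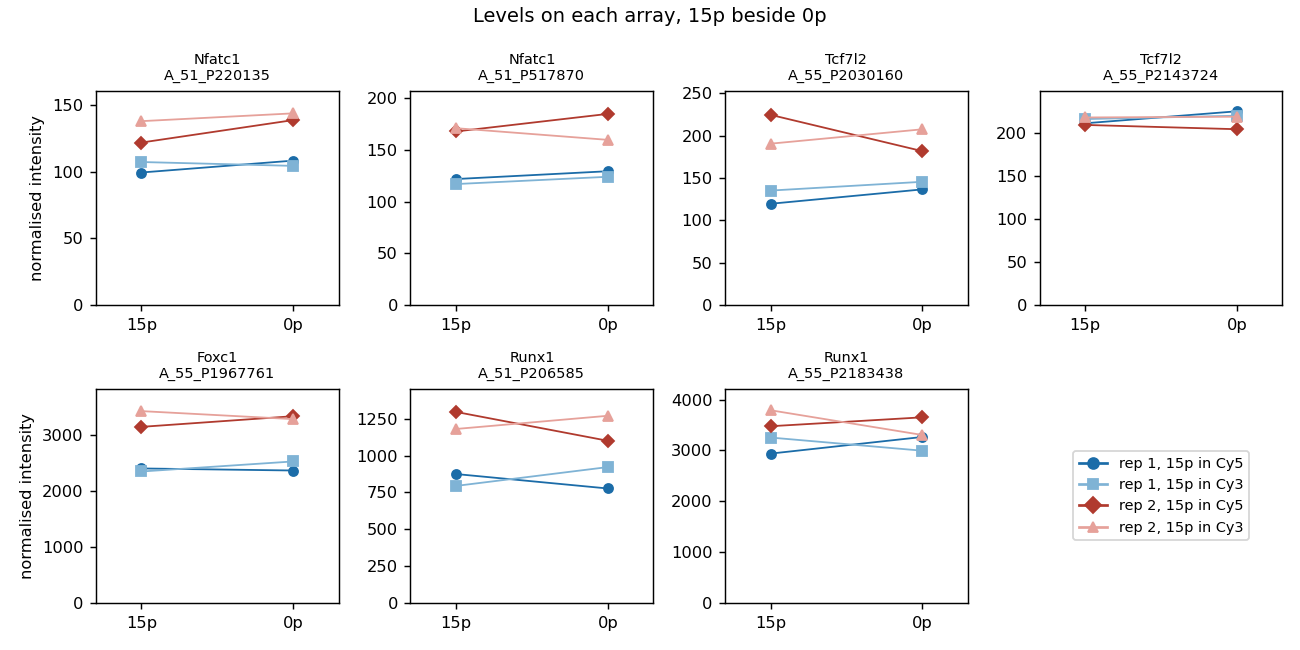
Normalised intensity on each array for the 7 kept probes of Nfatc1, Tcf7l2, Foxc1 and Runx1, 15p left and 0p right, joined within an array and coloured by replicate and dye, each panel on its own linear axis from 0. The 15p and 0p values overlap in every panel, and the lines of the 2 Runx1 probes slope in opposite ways on every array.

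Nfatc1 encodes a calcineurin-dependent factor that holds bulge cells in quiescence. Both of its probes were dim but kept. The tested one, A_51_P517870 for NM_198429 at chr18:80803664-80803723 (mm9), was at 122, 117, 168 and 171 in 15p RNA and at 129, 124, 185 and 159 in 0p RNA, in the same array order. The 15p and 0p ranges overlapped, and replicate 2 was brighter than replicate 1 in both, again without scaling between arrays. The log2 ratios were -0.087, -0.084, -0.14 and 0.098, with a mean of -0.053 ± 0.046 (SD, n = 2), a 95% interval of -0.18 to 0.069 and an adjusted p of 0.849 (limma).

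The other Nfatc1 probe, A_51_P220135 for NM_016791 at chr18:80845439-80845498, had ratios of -0.12, 0.040, -0.19 and -0.060 and a mean of -0.083 ± 0.057 (SD, n = 2). Among 16 NFAT family and calcineurin genes on the array 13 were tested, 6 positive and 7 negative (median -0.0054), with 0 called and 2 at an unadjusted p below 0.05, against 6.30 percent of all tested genes. Those 2 were Ppp3ca, the catalytic calcineurin subunit, at -0.13 ± 0.044, and Rcan1, a calcineurin inhibitor whose gene is an NFAT target, at -0.13 ± 0.049 (SD, n = 2; limma adjusted p = 0.749 for each). Rcan1 was negative on all 4 arrays, at -0.078, -0.11, -0.27 and -0.059, and Ppp3ca on 3 of 4. The third of the list by size was Ppp3r1, the regulatory calcineurin subunit, at -0.11 ± 0.27 (limma adjusted p = 0.804).

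Tcf7l2 encodes a TCF/LEF factor that binds beta-catenin. It had 3 probes, 2 of them kept. The tested one, A_55_P2143724 for NM_001142923 at chr19:55817272-55817331 (mm9), was at 211, 216, 209 and 218 in 15p RNA and at 225, 219.6, 204 and 218 in 0p RNA, in the same array order. These ranges overlapped, and the ratios were among the closest to 0 of the members: -0.092, -0.026, 0.035 and -0.0058, with a mean of -0.022 ± 0.052 (SD, n = 2), a 95% interval of -0.14 to 0.10 and an adjusted p of 0.942 (limma).

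The second kept Tcf7l2 probe, A_55_P2030160 for NM_001142920 at chr19:55994029-55994088, is shown by its first 30 bases because its ratios ranged more widely over the arrays than those of the tested probe.
Tcf7l2 A_55_P2030160: caaaatactacgagctggcccggaaggaac
It was at 120, 135, 225 and 191 in 15p RNA and at 137, 146, 182 and 208 in 0p RNA. The ratios were -0.19, -0.11, 0.31 and -0.12, so that only the 15p-Cy5 array of replicate 2 was positive, and their mean was -0.029. The third probe, A_55_P2260094 for NM_001142918, was well above background on 1 of 4 arrays in each RNA and was not tested.

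The gene Tcf7l1, whose product was long called TCF3 and represses Wnt targets in bulge cells, needs care over its name. On this array probes named Tcf3 and Tcf4 carry accessions of the E protein genes E2A and E2-2, which are other genes, while Tcf7l1 has its own probe, A_52_P387724 for NM_001079822 at chr6:72576377-72576436 (mm9). That probe was well above background on 1 of 4 arrays in each RNA and so had no test. Its levels, which include the added offset of 50, were 59.6, 98.0, 70.6 and 75.5 in 15p RNA and 61.1, 95.01, 69.2 and 70.9 in 0p RNA. The E protein gene Tcf3 had a ratio of 0.13 ± 0.097 (SD, n = 2; limma adjusted p = 0.749), which says nothing of Tcf7l1. The E protein genes Tcf12 and Tcf4 were at -0.050 and 0.00030.

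Of 16 genes of the TCF/LEF partners and Groucho corepressors on the array 14 were tested, 10 positive and 4 negative, with a median of 0.040 and 0 called. Ctnnbip1, an inhibitor of the binding of beta-catenin to TCF factors, was at 0.13 ± 0.098 and positive on all 4 arrays. Ctnnb1, which encodes beta-catenin, was at -0.095 ± 0.12, and the corepressor gene Tle3 at 0.086 ± 0.050 (SD, n = 2; limma adjusted p = 0.749, 0.776 and 0.780). Lef1, the TCF/LEF factor of hair differentiation, was too dim to test.

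Lhx2 and Tbx1 were well above background on 0 of 4 arrays in either RNA. Lhx2, a LIM homeobox factor that keeps bulge cells from activation, was read by 1 probe for NM_010710 at chr2:38224933-38224992 (mm9). Its levels were 74.8, 68.6, 72.8 and 77.1 in 15p RNA and 73.1, 67.8, 86.4 and 72.6 in 0p RNA. Tbx1, a T-box factor that helps bulge cells renew over repeated hair cycles, was read by 1 probe for NM_011532 at chr16:18581807-18581866. Its levels were 82.1, 81.0, 86.4 and 71.4 in 15p RNA and 73.4, 80.8, 74.8 and 78.4 in 0p RNA. The ranges of both genes overlapped near the floor that the offset sets, so neither a difference nor its absence can be read from these probes.

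Of 21 LIM homeobox and LIM cofactor genes 12 were tested, 10 positive and 2 negative (median 0.012), and none was called. Ldb1, the cofactor that LIM homeodomain proteins bind, was at 0.086 ± 0.010, Lmo1, a LIM-only gene, at 0.11 ± 0.078, and Rlim, a ligase that acts on LIM cofactors, at -0.11 ± 0.21 (SD, n = 2; limma adjusted p = 0.776, 0.749 and 0.790). Ldb1 had mixed signs over the arrays, at -0.038 and 0.20 in replicate 1 and 0.25 and -0.059 in replicate 2. Of 15 T-box paralogs only 4 were tested, 3 positive and 1 negative (median 0.040), with Tbx22 the largest at 0.060 ± 0.015 (limma adjusted p = 0.834). Its ratios were -0.19 and 0.29 in replicate 1 and 0.083 and 0.059 in replicate 2. For both genes the SD over replicates leaves out this spread between arrays.

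Other genes of the bulge gave a frame for the factors. Of 26 bulge and quiescence genes on the array 20 were tested, 13 positive and 7 negative, with a median of 0.026 and 0 called. Of these, 2 of 20, Krt15 and Cdkn1a, were at an unadjusted p below 0.05, against 6.30 percent of all tested genes; the lists of TCF/LEF, LIM, SOX, T-box and RUNX genes had 0, and the 3 E protein genes 1, Tcf3. Beside Krt15, the largest were Cdkn1a, a cell cycle inhibitor, at 0.15 ± 0.18, and Id2, an inhibitor of E proteins, at -0.096 ± 0.040 (SD, n = 2; limma adjusted p = 0.749 and 0.758). Cdkn1a was at 0.62 on the 15p-Cy5 array of replicate 2 and between -0.070 and 0.060 on the others, whereas Id2 was negative on all 4 arrays, from -0.14 to -0.034.

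**Figure D5:**
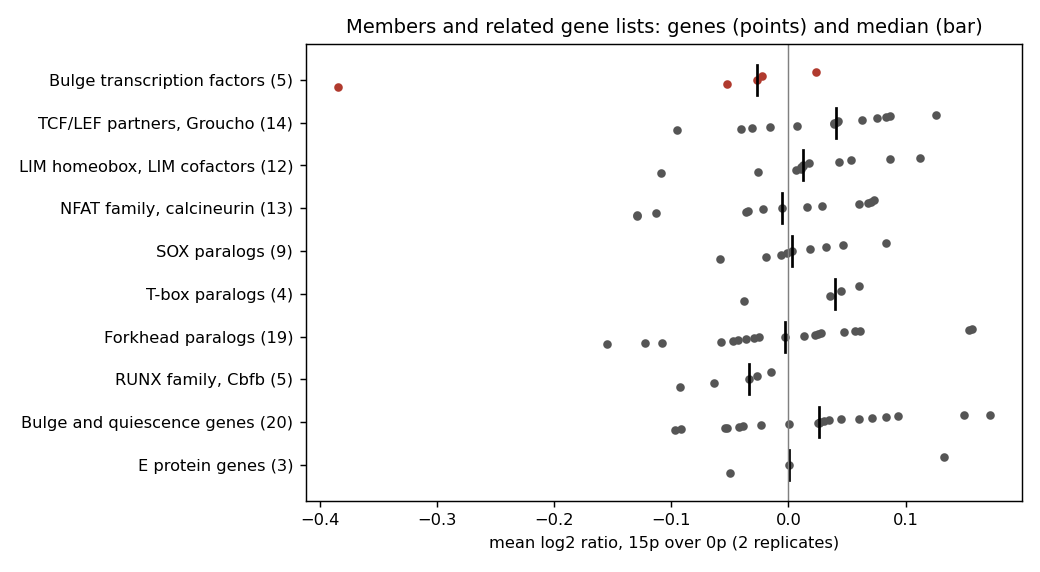
Mean log2 ratio of 15p over 0p (2 replicates) for the 5 tested members (red) and for the tested genes of 9 related lists (grey), one point a gene, with each list's median as a black bar and the number tested in brackets. All list medians lie between -0.034 and 0.040, and Sox9 at -0.38 is the lowest point, with Krt15 at 0.17 the highest.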

How the data were processed

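Gene expression in 15p and 0p RNA was measured on 4 2-colour arrays, each replicate as a dye-swap pair; per the labels' protocols, 200 ng of total RNA was amplified and labelled and 825 ng of each cRNA hybridised. The deposited scanner files hold mean and local background intensity for each spot and dye, extracted with Agilent Feature Extraction 10.7.3.1 per the file headers and the submitters' processing notes. The deposited processed intensity had its background subtracted and its dyes balanced, and the deposited log10 ratio is Cy5 over Cy3, per the file headers. The series-wide deposited values hold these same log10 ratios, not turned for the dye swap (largest difference 0.0045, column medians 0), and served only as an alternative. Per the file headers, the software also flagged spots as irregular, saturated, or well above background.

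The tools were R 4.3.3, limma 3.58.1 and, for plots, matplotlib 3.10.9. Mean intensities were corrected with normexp (offset 50), and loess then normalised every array with a weight of 0 for control spots; irregular spots (154 to 286 per array) were left out, and 0 spots were saturated. Spots of a probe were averaged, ratios turned to log2 of 15p over 0p, and both arrays of a dye-swap pair averaged into 1 replicate. Each SD over replicates is that of these 2 means and leaves out the spread between the arrays of a pair. Levels printed are normalised intensities that include the offset, without scaling between arrays. Kept probes were those well above background in at least 1 RNA on all 4 arrays (21675 of 39429 probes), and the brightest kept probe stood for its gene (17374 genes). The mean of the 2 replicates was tested against 0 with limma's moderated test (residual degrees of freedom 1, prior 8.89), with Benjamini-Hochberg adjustment over all tested genes. The 95% interval reached a median of 0.123 to either side of the ratio on the log2 scale; the number of arrays limits the precision. The test was also run on simulated replicate means with known changes of 2-fold or more. That simulation had no dye effect and no outlying array, so it does not cover these features of the data.

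Symbols came from RefSeq (GRCm38.p6) through transcript accessions, which matched for 26055 probes, and otherwise from the files; the array annotation gives positions in mm9, and the printed sequences are the probes' own from the deposited files. All members were named with all their probes, and for each related list up to 3 tested genes with the largest mean ratio and any called; for a member with a 2-fold difference on some array, the 3 nearest genes were named. Krt5, Krt14, Cd34, Itga6, Krt15 and Lef1 were named by the same rule. Foxc2, Lgr5 and the single immune, endothelial and fibroblast marker genes in the text were named beyond it. The members and lists were chosen with earlier results of these data known. Alternatives changed the background correction, normalisation, probe filter, choice of probe, model and arrays used.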

Additional observations from a re-analysis of the deposited data

How the results depend on the processing

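The count of genes called was 0 in the limma fit, with 1095 at an unadjusted p below 0.05, and 0 under all but 3 of the alternatives with a test. It was 1 with no filter on dim probes (Rtn4, lower) and 3 without the 15p-Cy5 array of replicate 2 (F830223B06Rik, Gm9853 and Prr7, all lower; all 4 of these genes were named after their values were seen). Arrays of the same replicate number deviated in opposite ways (correlation -0.26), and crossed pairs called 60 genes, 1 of them a member, Sox9, at the same mean of -0.38. In the crossed fit every gene had the same variance, as given for Sox9 above. The cause of these changes in the count was not tested. A fit with a ratio of its own for each replicate equals the crossed pairs. That fit was the first form of the replicate block to be tried, and it was replaced after its result was seen. The replicate block as given here is a dye term of its own for each replicate; with this block on the 4 arrays Sox9 was at -0.38 (limma adjusted p = 0.749), and 0 genes were called with 1095 at an unadjusted p below 0.05, as in the main test by construction. With no replicate block 0 genes were called, with 323 at an unadjusted p below 0.05, and with separate channels 0, with 38.

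Every one of the 5 tested members changed sign under at least 1 alternative, Sox9 and Tcf7l2 only on leaving out a whole replicate. Foxc1 was at 0.0044 with median centring, 0.0053 without the 15p-Cy3 array of replicate 1 and 0.0098 without the 15p-Cy5 array of replicate 2. Nfatc1 was at 0.0065 on leaving out that same array of replicate 2. Runx1 was at -0.044 without either array with 15p in Cy3. With single arrays left out, the members ranged from -0.76 to -0.0073 (Sox9), -0.039 to -0.0056 (Tcf7l2), -0.11 to 0.0065 (Nfatc1), -0.063 to 0.0098 (Foxc1) and -0.044 to 0.092 (Runx1). Leaving out a replicate leaves no test; without replicate 1 and without replicate 2 the ratios ranged from -0.81 to 0.038 for Sox9, -0.059 to 0.015 for Tcf7l2, -0.085 to -0.020 for Nfatc1, -0.042 to -0.012 for Foxc1 and -0.016 to 0.064 for Runx1. With no filter on dim probes Lhx2 was at -0.028, Tcf7l1 at 0.032 and Tbx1 at 0.059 (limma adjusted p = 0.944, 0.930 and 0.868).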
